A study of Mus musculus with 12 samples.

Results

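A group of 9 transcripts that mark the mural cells of blood vessels was followed through RNA-seq of sorted mouse muscle stem cells. The members were taken by gene name from the deposited table of raw counts, and all 9 were found among its 55401 genes. They comprise 5 transcripts of the smooth muscle contractile apparatus, Acta2, Myh11, Tagln, Cnn1 and Mylk, and 4 transcripts typical of pericytes, Rgs5, Pdgfrb, Kcnj8 and Abcc9. All 9 passed the filter on low counts, which left 25771 genes for testing.

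Cells carrying the Pax7-ZsGreen reporter, which marks satellite cells, the stem cells of skeletal muscle, were sorted by FACS from hind limbs. Every mouse was CXCR4 FL/FL with Pax7-ZsGreen and received tamoxifen for 5 days at 80 mg/kg. Mice called Cxcr4 KO also carried Pax7-creERT2, so that Cxcr4 was deleted in cells that express Pax7 and not in vessel cells, and mice called WT lacked cre. By the study's methods the mice were adults of 3 to 4 months, and a tamoxifen diet followed the injections. Quiescent libraries came from freshly sorted cells (4 WT and 4 KO) and activated libraries from sorted cells cultured overnight (2 WT and 2 KO). Nothing in the labels ties each library to its own mouse, so p-values measure the spread between libraries, part of which may be technical.

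Mural cells wrap the endothelium. Smooth muscle cells of arterioles shorten when calcium and calmodulin switch on myosin light chain kinase, the product of Mylk, which phosphorylates the light chains of smooth muscle myosin (Myh11) so that it can pull on smooth muscle actin (Acta2). Calponin (Cnn1) and transgelin (Tagln, also called SM22) bind these actin filaments. Pericytes sit on capillaries, are recruited by endothelial PDGF-B through its receptor (Pdgfrb), and carry the ATP-sensitive potassium channel built from the pore Kcnj8 and the sulfonylurea receptor Abcc9. Rgs5 shortens signaling by heterotrimeric G proteins and is among the most used pericyte markers. Muscle stem cells reside next to capillaries, and no member is a usual satellite cell marker.

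The quiescent libraries held 12775593 to 23717013 counts and the activated libraries 3172164 to 5427280. A ribosomal RNA gene, CT010467.1, took 11.5% to 40.3% of the activated counts and at most 0.807% of the quiescent counts. Quiescent libraries carried the Y-linked Ddx3y at 289 to 570 CPM (counts scaled to the size of each library) and Xist at 1.2 to 7.17 CPM, while activated libraries carried Ddx3y at 0 to 2.28 CPM and Xist at 451 to 817 CPM. State of the cells, sex of the mice, culture and depth therefore cannot be told apart. Cxcr4 was lower in quiescent KO than in quiescent WT libraries (log2 fold change -2.24, SE 0.307, adjusted p = 0.00477 by edgeR's quasi-likelihood test), and in activated libraries the difference missed the threshold (-1.35, SE 0.461, adjusted p = 0.381). Satellite cell markers were present in every group, with Pax7 at 181 to 482 CPM in quiescent and 71.2 to 129 CPM in activated libraries. They were lower in activated cells, 8 of the 10 on the list being called lower in WT (median log2 fold change -2.10) and 9 of 10 in KO (median -1.76), and Calcr had 0 counts in activated KO library 1. Over all genes, 15.7% were called lower in WT and 17.4% in KO.

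On GRCm38, by the GENCODE annotation, the contractile members lie on chromosomes 9, 16 and 19. They are Acta2 (ENSMUSG00000035783) at chr19:34241090-34255590 on the minus strand, Myh11 (ENSMUSG00000018830) at chr16:14194535-14291372 on the minus strand, Mylk (ENSMUSG00000022836) at chr16:34745210-35002420 on the plus strand, Tagln (ENSMUSG00000032085) at chr9:45929619-45936058 on the minus strand and Cnn1 (ENSMUSG00000001349) at chr9:22099216-22109630 on the plus strand. The channel subunits are neighbours, with Kcnj8 (ENSMUSG00000030247) at chr6:142564837-142571614 on the minus strand and Abcc9 (ENSMUSG00000030249) at chr6:142587862-142702315 on the minus strand. The other pericyte members are Rgs5 (ENSMUSG00000026678) at chr1:169655501-169695813 on the plus strand and Pdgfrb (ENSMUSG00000024620).

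Promoter sequence was read for 6 of the 9 members (Acta2, Cnn1, Mylk, Rgs5, Kcnj8 and Abcc9), as RefSeq windows on GRCm38.p6, of which the 250 bases before the annotated start were read. The Mylk window, at chr16:34784700-34784949, lies inside the gene as GENCODE annotates it, which starts at 34745210. The sequence before that GENCODE start was not read. Smooth muscle genes are classically controlled through the CArG box, the 10-letter element bound by serum response factor with myocardin. No member window held a perfect CArG box, which 1.47% of all 32851 windows did. With at most 1 letter off, a form that 18.6% of all windows hold, there were 2 matches upstream of Acta2 and 1 upstream of Kcnj8. The motif reads the same on both strands. The Acta2 matches began 84 and 34 bases before the RefSeq start, at chr19:34255438-34255467 and chr19:34255388-34255417 on the minus strand including 10 bases on each side, where GENCODE annotates the first exon of Acta2. These stretches are shown because Acta2 led the contractile group in level, with the match in capitals:
Acta2, farther match: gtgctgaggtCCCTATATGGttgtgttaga
Acta2, nearer match: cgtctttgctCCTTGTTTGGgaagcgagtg
The windows of 2 pericyte members lay wholly outside annotated exons of their genes, and they are shown to set a pericyte promoter with a match beside one without. Kcnj8 is at chr6:142571615-142571864 on the minus strand, again with the match in capitals, and Rgs5 at chr1:169655251-169655500 on the plus strand, with no match:
Kcnj8: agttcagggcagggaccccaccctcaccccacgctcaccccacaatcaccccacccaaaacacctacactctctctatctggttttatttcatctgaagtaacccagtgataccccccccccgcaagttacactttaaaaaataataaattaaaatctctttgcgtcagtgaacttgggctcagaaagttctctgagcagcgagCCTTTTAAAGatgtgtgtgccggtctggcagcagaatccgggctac
Rgs5: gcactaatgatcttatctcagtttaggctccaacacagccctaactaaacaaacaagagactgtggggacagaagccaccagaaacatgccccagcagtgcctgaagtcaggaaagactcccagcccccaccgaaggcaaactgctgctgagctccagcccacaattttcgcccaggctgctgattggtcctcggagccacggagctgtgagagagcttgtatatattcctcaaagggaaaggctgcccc
A match describes letters only and says nothing of binding.

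By group mean per exon length, Rgs5 was the most abundant member in all 4 groups. Its mean was 152 ± 80.2 CPM per kilobase of exon (SD, n = 4) in quiescent WT libraries and 125 ± 88.2 (SD, n = 4) in quiescent KO libraries. Acta2 followed at 82.6 ± 33.5 and 90.7 ± 28.3, then Myh11 at 23.6 ± 12 and 21.0 ± 8.46. Mylk, Kcnj8, Pdgfrb and Abcc9 lay close together, between 6.3 and 12.7 CPM per kilobase in WT. Cnn1 (3.56 ± 1.98 in WT) and Tagln (2.31 ± 0.481 in WT) were the lowest. The quiescent KO libraries gave the same order. Between neighbours in that order, Acta2 stood above Myh11 by more than the larger of the neighbours' SDs in both genotypes. Rgs5 and Acta2, and the neighbours from Mylk to Abcc9, differed by less than that spread. In quiescent KO libraries 2 and 4, Acta2 stood above Rgs5 per kilobase. There Acta2 was at 184 and 156 CPM over 2196 exon bases, and Rgs5 at 331 and 171 CPM over 4546.

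The order differed in the activated libraries. Rgs5 stayed first, at 46.3 ± 4.11 CPM per kilobase (SD, n = 2) in WT and 38.1 ± 11.6 (SD, n = 2) in KO, beyond the spread from the next member. Acta2 was second in activated WT at 6.44 ± 4.04. In activated KO it stood at 3.59 ± 2.27, after Abcc9 at 5.37 ± 1.69 and Kcnj8 at 3.98 ± 1.21. The other positions of Acta2, Kcnj8, Abcc9 and Pdgfrb differed by less than the spread. The FPKM values that the authors deposited, 1 per group, lay within 1 SD of the means per kilobase for all 9 members in every group.

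**Figure D1:**
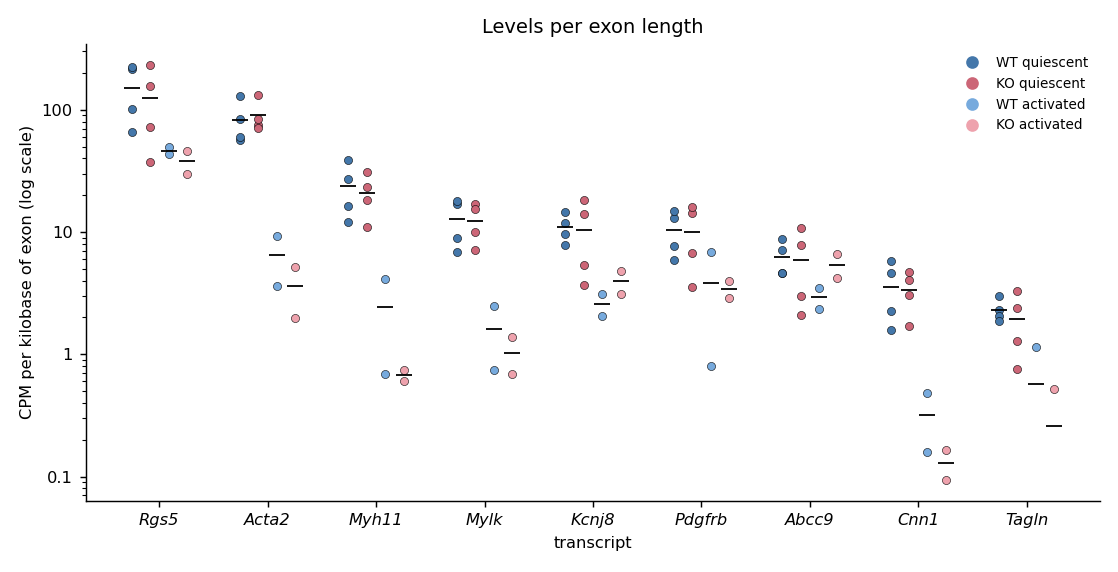
CPM per kilobase of exon (log axis) for each of the 9 transcripts, ordered by the quiescent WT mean; points are libraries, dashes are group means, and a library with 0 counts has no point. The mean of Rgs5 is highest in every group, while the activated points of Acta2, Myh11, Mylk and Cnn1 sit below all their quiescent points.

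The first comparison asked whether loss of Cxcr4 in satellite cells came with a change of these transcripts in freshly sorted cells. None of the 9 was called different between quiescent KO and WT libraries, where a call needs an adjusted p under 0.05, a log2 fold change over 1 in size and a mean normalized count over 10. Over all genes tested, 0.0155% were called, so that few calls were made anywhere in this comparison. Log2 fold changes of the members ran from -0.27 for Rgs5 to 0.14 for Acta2, with a median of -0.09 beside 0.02 over all genes. All 9 adjusted p-values were 1, none of the unadjusted p-values was under 0.05, and the KO and WT libraries overlapped for 9 of 9 members, whereas 1.7% of all genes did not overlap.

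Among the contractile members, Acta2 stood at 186, 284, 124 and 131 CPM in WT libraries 1 to 4 and at 166, 184, 291 and 156 CPM in the KO libraries. The ranges overlapped, with WT library 2 and KO library 3 the highest of their groups (log2 fold change 0.14, SE 0.315). Myh11, the smooth muscle myosin heavy chain, was at 207, 294, 91.2 and 124 CPM in WT and at 179, 139, 236 and 84.2 CPM in KO (-0.17, SE 0.394). Mylk was at 191, 203, 77.4 and 102 CPM in WT and at 192, 113, 174 and 81.3 CPM in KO (-0.03, SE 0.354). For both genes WT library 3 and KO library 4 were the low ends of their groups. Cnn1 was at 12.5, 15.9, 4.30 and 6.21 CPM in WT and at 8.29, 12.8, 11.1 and 4.63 CPM in KO (-0.08, SE 0.412). Tagln was at 4.59, 4.12, 3.73 and 5.92 CPM in WT and at 6.57, 1.5, 4.74 and 2.55 CPM in KO (-0.25, SE 0.582). KO library 2 was the highest KO library for Cnn1 and the lowest for Tagln. KO libraries 1 and 3 were the higher ones for Tagln, as for Myh11 and Mylk. Tagln was highest in WT library 4, whereas the other contractile members were highest in WT library 2. Its value is uncertain, because the antisense gene Gm48529 (3.5 CPM in quiescent WT) shares 62.4% of the exon bases of Tagln and Pcsk7 a further stretch of 108 bases, and whether the counts use strand is not given in the sources used here.

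Among the pericyte members, Rgs5 reached 974, 1024, 298 and 460 CPM in WT libraries and 712, 331, 1066 and 171 CPM in KO libraries (log2 fold change -0.27, SE 0.431). Both genotypes had high and low libraries, and their ranges overlapped. Pdgfrb was at 71.2, 82.0, 42.0 and 32.2 CPM in WT and at 77.7, 36.6, 87.1 and 19.5 CPM in KO (-0.04, SE 0.456). The channel pore Kcnj8 was at 36.9, 30.4, 24.6 and 20.1 CPM in WT and at 35.7, 13.8, 46.4 and 9.35 CPM in KO (-0.09, SE 0.377). Its partner Abcc9 was at 59.7, 73.9, 38.6 and 38.8 CPM in WT and at 89.5, 17.5, 65.8 and 25.3 CPM in KO (-0.09, SE 0.381). For all 4 pericyte members KO libraries 1 and 3 were high and KO libraries 2 and 4 low, and for each of them the KO range enclosed the WT range.

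**Figure D2:**
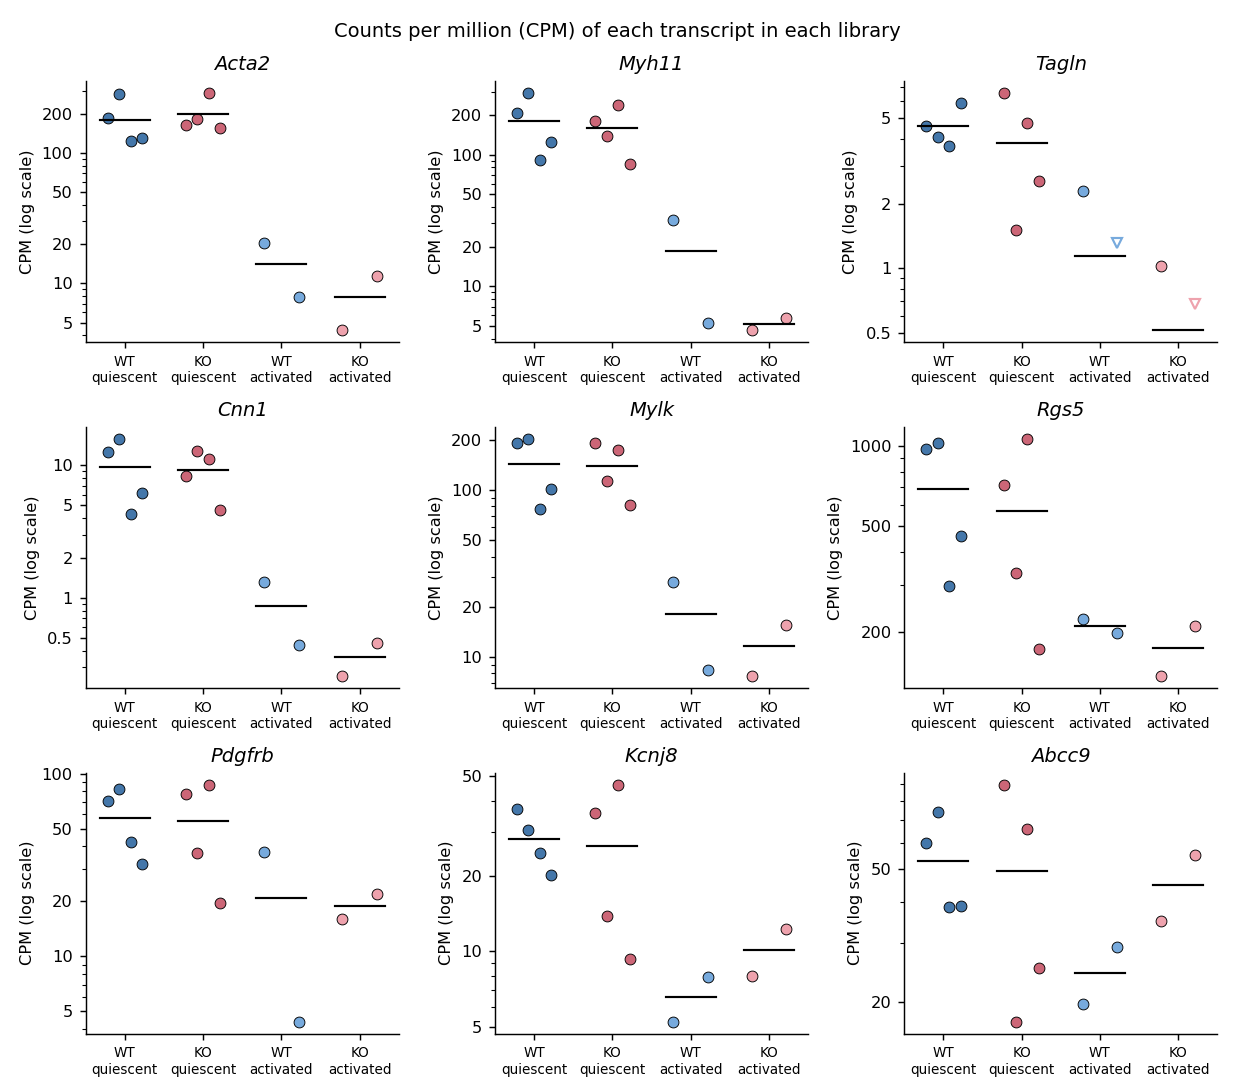
CPM (log axis, a different range in each panel) of each transcript in each library, by group; points are libraries in order of replicate number, lines are means, and open triangles mark libraries with 0 counts at the level that 3 counts would give. Quiescent KO points overlap quiescent WT points in all 9 panels, and the activated points of the 5 contractile transcripts lie below every quiescent point of the same genotype.

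The spread within genotype was shared by most members. Quiescent WT libraries 1 and 2 and KO libraries 1 and 3 held the 4 highest values of Rgs5, Pdgfrb, Kcnj8 and Abcc9, and the 9 members summed to 1742, 2012, 1468 and 1982 CPM in them. The other quiescent libraries, WT 3 and 4 and KO 2 and 4, summed to 704, 921, 850 and 554 CPM. Endothelial markers moved with this split, since the 10 listed markers summed to 1412, 1468, 1542 and 1449 CPM in the former libraries and to 606, 701, 562 and 345 CPM in the latter. Pecam1, the endothelial adhesion molecule CD31, kept a ratio to Rgs5 of 0.259 to 0.443 over all 8 quiescent libraries while Rgs5 itself ran from 171 to 1066 CPM. None of the 10 endothelial markers was at 0 in any group. Fewer vessel cells in a sort and less RNA per vessel cell cannot be told apart in bulk samples, and the part of carried-over endothelial or mural cells in these values was not tested. Because the 8 libraries fall into separate sets of 4, no correlation between members is given over them.

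Contractile and pericyte members were not present in a fixed proportion. The summed contractile members stood at 0.526 to 0.747 of the summed pericyte members in the 4 WT libraries and in KO libraries 1 and 3 at 0.604 and 0.567. In KO libraries 2 and 4 the ratio was 1.13 and 1.46. Acta2 alone showed the same, with a ratio to Rgs5 of 0.556 and 0.909 in these libraries and of 0.191 to 0.418 in the other 6. Hematopoietic markers were highest in KO library 4, at a sum of 441 CPM against 95.8 to 198 CPM in the remaining quiescent libraries, and their part in this ratio was not tested.

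**Figure D3:**
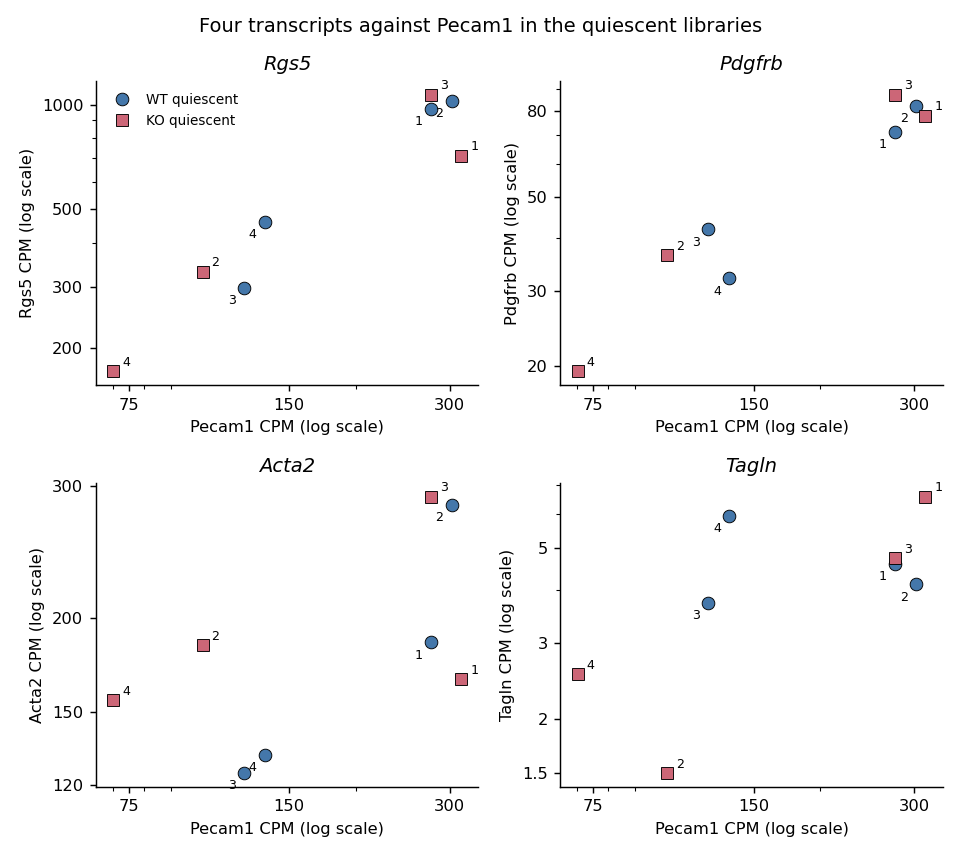
CPM of Rgs5, Pdgfrb, Acta2 and Tagln against CPM of the endothelial marker Pecam1 in the 8 quiescent libraries (log axes; circles WT, squares KO, numbers are replicates). Rgs5 and Pdgfrb rise with Pecam1 from KO library 4 to the set of 4 libraries at 276 to 315 CPM of Pecam1. For Acta2 and Tagln this set overlaps the other quiescent libraries. Of the contractile members not drawn, Myh11 and Mylk were also highest in this set, and Cnn1 overlapped. The panels therefore do not divide contractile from pericyte members.

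The genes most like Rgs5 across the 8 quiescent libraries, by Pearson's r of log2 CPM among 16967 genes, were Fbln5 (0.994), Dll4 (0.992), Rflnb (0.987), Mmp15 (0.985) and Mall (0.983). Fbln5 encodes a protein of elastic fibers and Dll4 a Notch ligand of endothelial tip cells and arteries. Fbln5 was at 39.5, 45.1, 14.5 and 19.4 CPM in WT and at 29.1, 17.5, 42.7 and 9.77 CPM in KO, the same libraries being high as for Rgs5. For Myh11 the nearest were Eva1a (0.979), Yes1 (0.975), Grip2 (0.973), Fbln5 (0.971) and Ccnd2 (0.97). These values describe likeness only, since libraries of separate sets make large values common: 265 genes exceeded 0.9 with Rgs5 and 164 with Myh11.

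The second comparison asked how the members stood in activated against quiescent cells of WT mice. Of the 9, 6 were called lower in activated cells (Acta2, Myh11, Cnn1, Mylk, Rgs5 and Kcnj8), beside 15.7% of all genes tested. The median log2 fold change of the members was -2.14, and that of all genes was -0.92, so that a member has to be read against a general shift. All activated WT libraries lay below all quiescent WT libraries for 8 of the 9 members, a pattern that 38.4% of all genes also showed. The exception was Pdgfrb.

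Of the 5 contractile members, 4 were called lower. Acta2 was at 20.4 and 7.88 CPM in the activated WT libraries, against 124 to 284 CPM in quiescent ones, and fell by 3.61 on the log2 scale (SE 0.485, adjusted p = 1.32e-05). Cnn1, at 1.31 and 0.438 CPM from 8 and 1 counts, fell by 3.26 (SE 0.714, adjusted p = 0.00167). Myh11, at 31.7 and 5.25 CPM, fell by 3.19 (SE 0.586, adjusted p = 0.00034). Mylk, the kinase that starts contraction, was at 28.1 and 8.32 CPM and fell by 2.91 (SE 0.52, adjusted p = 0.000261). All 4 calls were also made with each library left out in turn. Tagln had 14 counts and 0 counts in the activated WT libraries (2.29 and 0 CPM, the latter allowing up to 1.31 CPM), and its log2 fold change of -1.72 did not pass the test (SE 0.864, adjusted p = 0.136). It passed with activated WT library 1 left out (adjusted p = 0.0335), where the only activated WT library remaining had 0 counts and the fitted fold change is no bound.

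Of the 4 pericyte members, 2 were called lower, and no test compared them with the contractile members. Rgs5 was at 223 and 197 CPM in the activated WT libraries, just under the lowest quiescent one at 298 CPM, and fell by 1.71 on the log2 scale (SE 0.576, adjusted p = 0.0308). This call was lost without quiescent WT library 1 or 2 or without activated WT library 1 or 2, with adjusted p from 0.0746 to 0.159. Kcnj8, at 5.23 and 7.88 CPM, fell by 2.14 (SE 0.564, adjusted p = 0.00706), a call lost without activated WT library 1 (adjusted p = 0.106). Abcc9 was at 19.8 and 29.3 CPM, below its quiescent range, but its log2 fold change of -1.12 did not pass the test (SE 0.512, adjusted p = 0.103). It passed on the compared groups alone (-1.06, adjusted p = 0.0229). Pdgfrb was at 37.4 and 4.38 CPM and its activated libraries straddled the lower quiescent values (-1.36, SE 0.612, adjusted p = 0.0978). It passed with activated WT library 1 left out (-3.62, adjusted p = 0.00204).

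The same comparison in KO mice gave 7 calls, all lower in activated cells, beside 17.4% of all genes: the 5 contractile members, Rgs5 and Kcnj8. The median was -2.94 for the members and -0.96 for all genes. All activated KO libraries were below all quiescent KO libraries for the 5 contractile members and for none of the 4 pericyte members, and 36.1% of all genes showed such a gap. Myh11 was at 4.62 and 5.70 CPM in the activated KO libraries and fell by 4.95 on the log2 scale (SE 0.673, adjusted p = 1.33e-05). Acta2, at 4.37 and 11.4 CPM, fell by 4.65 (SE 0.521, adjusted p = 1.42e-06), and Mylk, at 7.71 and 15.5 CPM, fell by 3.59 (SE 0.547, adjusted p = 4.56e-05). Cnn1 rested on 1 and 2 counts (0.257 and 0.456 CPM) and fell by 4.64 (SE 0.836, adjusted p = 0.000258). These 4 calls held with each library left out. Tagln had 4 counts and 0 counts, and its call (-2.94, SE 1.03, adjusted p = 0.0333) was lost without quiescent KO library 1 or 3, without activated KO library 2, and on the compared groups alone (adjusted p = 0.0522).

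Among the pericyte members in KO, Rgs5 was at 136 and 211 CPM in activated libraries and fell by 1.72 on the log2 scale (SE 0.577, adjusted p = 0.0275). Its activated values bracketed that of quiescent KO library 4, 171 CPM. Kcnj8, at 7.96 and 12.3 CPM, fell by 1.37 (SE 0.521, adjusted p = 0.0481), again with an overlap, since quiescent KO library 4 was at 9.35 CPM. Both calls were lost without quiescent KO library 1 or 3 or activated KO library 1 or 2, with adjusted p from 0.0509 to 0.192 for Rgs5 and from 0.0931 to 0.29 for Kcnj8, which was also lost on the compared groups alone (adjusted p = 0.0907). Pdgfrb, at 15.9 and 21.9 CPM, missed the threshold (-1.54, SE 0.623, adjusted p = 0.0619) and passed on the compared groups alone (adjusted p = 0.0414) and without quiescent KO library 4 (adjusted p = 0.0182). Abcc9, at 34.9 and 55.0 CPM, lay within its quiescent range of 17.5 to 89.5 CPM (-0.14, SE 0.478, adjusted p = 0.828).

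**Figure D4:**
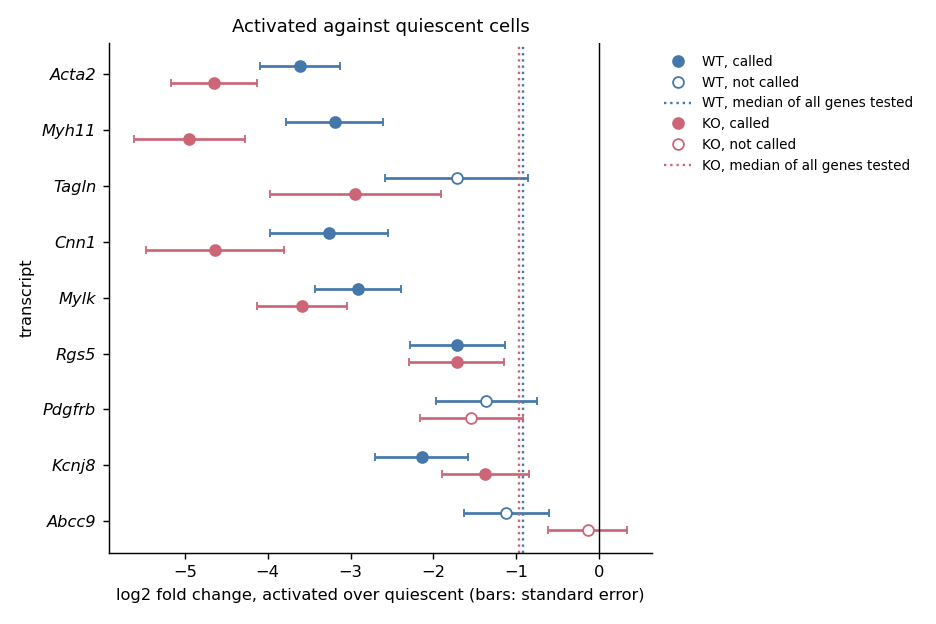
Log2 fold change of each transcript in activated against quiescent libraries (x axis, bars are standard errors), in WT and KO; filled points were called, open points were not, and dotted lines are the medians of all genes tested. Acta2, Myh11, Cnn1 and Mylk lie furthest left in both genotypes, and Abcc9 in KO lies at -0.14.

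The ratio of the summed contractile to the summed pericyte members differed with state in these libraries. Summed contractile members were 0.293, 0.0917, 0.0923 and 0.11 of the summed pericyte members in the activated libraries (WT 1, WT 2, KO 1 and KO 2), all below the lowest quiescent ratio of 0.526. Rgs5 was the largest part of the pericyte sum, at 223 of 286 and 197 of 239 CPM in activated WT libraries 1 and 2. The sums of the further listed genes of the 2 classes went the other way. Contractile genes summed to 2385 to 3137 CPM in quiescent and 2065 to 3042 CPM in activated libraries. Pericyte genes summed to 1111 to 2045 CPM in quiescent and 112 to 240 CPM in activated libraries. Des and Notch3 were the largest parts of these sums in quiescent libraries. Median log2 fold changes were -1.71 in WT and -1.84 in KO for the further contractile genes, and -1.78 and -2.36 for the further pericyte genes. Abcc9 stood at 0.257 and 0.261 of Rgs5 in the activated KO libraries and at 0.0885 and 0.149 in the activated WT libraries, beside 0.0528 to 0.148 in quiescent libraries. Other cell types moved too: the endothelial sum was 811, 118, 130 and 409 CPM in the activated libraries, in the same order, against 345 to 1542 CPM in the quiescent ones, and the 10 mature muscle fiber markers summed to 6571 to 16059 CPM against 292 to 957 CPM. Of 10 endothelial markers, 4 were called lower in WT and 3 in KO, beside 15.7% and 17.4% of all genes. The part of these cell types in the members' differences was not tested.

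The third comparison asked whether loss of Cxcr4 came with a change of the members in activated cells. None of the 9 was called, and 0.0504% of all genes were (13 genes, or 0 to 209 with 1 activated library left out). Members had a median log2 fold change of -0.71 beside 0 for all genes. The contractile members were lower in KO by point estimate, from -0.71 for Mylk to -1.92 for Myh11, without passing the test (adjusted p from 0.388 to 0.843), and libraries of both genotypes overlapped for each of them. For 2 of them these estimates rest on few counts. Tagln had 14 and 0 counts in activated WT and 4 and 0 in activated KO libraries. Cnn1 had 8 and 1 counts in WT and 1 and 2 in KO. The filter applied to the activated libraries alone left 7 of the 9 members. Myh11 had the smallest unadjusted p, 0.00934 (log2 fold change -1.92, SE 0.665, adjusted p = 0.388). It was at 31.7 and 5.25 CPM in WT and at 4.62 and 5.70 CPM in KO, so that the difference rested on activated WT library 1. Without that library the log2 fold change was -0.12, and without activated WT library 2 it was -2.69 and passed the test (adjusted p = 0.0215). Myh11 also passed when the filter on low counts was dropped (-1.91, adjusted p = 0.00079).

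Activated WT library 1 also held the highest Acta2, Tagln, Cnn1, Mylk and Pdgfrb of the 4 activated libraries, the highest endothelial sum (811 CPM) and the highest Cspg4, a pericyte proteoglycan, at 61.4 CPM against 6.42 to 13.1 CPM in the other 3. Without it, Mylk stood at 0.38 and Pdgfrb at 2.01 on the log2 scale, KO over WT. The channel subunits went the other way in the full set. Abcc9 was at 34.9 and 55.0 CPM in KO and at 19.8 and 29.3 CPM in WT (0.89, SE 0.571, adjusted p = 0.727), and Kcnj8 at 7.96 and 12.3 CPM in KO and at 5.23 and 7.88 CPM in WT (0.68, SE 0.626, adjusted p = 0.881). For both genes each KO library was above each WT library, which places 2 of 9 members among the 24.7% of all genes whose libraries did not overlap. Rgs5 (-0.28, SE 0.615) and Pdgfrb (-0.22, SE 0.688) both had an adjusted p of 1.

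**Figure D5:**
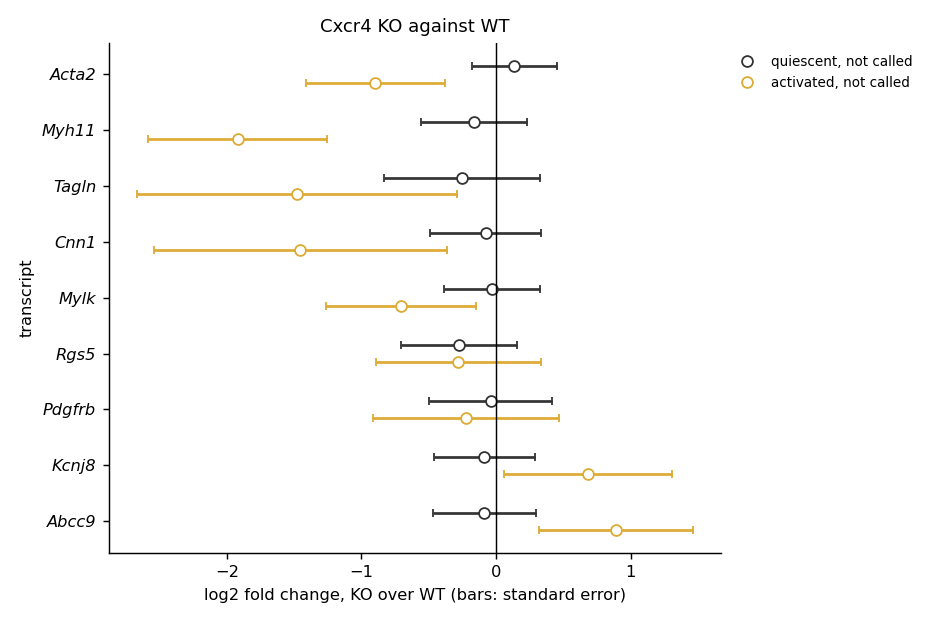
Log2 fold change of each transcript in KO against WT libraries (x axis, bars are standard errors), in quiescent and activated cells; open points were not called, and no point was called. The quiescent estimates lie between -0.27 and 0.14, and the activated ones between -1.92 for Myh11 and 0.89 for Abcc9 with wider bars.

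The difference of the KO effect between states, tested as an interaction, gave no call among the members and 0% over all genes. At an unadjusted p under 0.05 there was 1 member, Myh11 (-1.75, SE 0.771, adjusted p = 0.721), and 1699 genes in all. DESeq2 on the same libraries called none of the 9 members here, and none in either comparison of KO with WT.

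Other genes of the same pathways were taken from fixed lists. Of 21 further smooth muscle contractile genes, 10 were called lower and 6 higher in activated WT cells, and 11 lower and 5 higher in activated KO cells. Over all genes, 15.7% were called lower and 9.59% higher in WT, and 17.4% and 11% in KO. Medians of the 21 genes were -1.71 and -1.84. Itga8, an integrin subunit of smooth muscle, had log2 fold changes of -4.92 in WT and -4.35 in KO. Its activated values rested on 4 and 2 counts in WT and 4 and 5 counts in KO. Myocd, the coactivator myocardin, was lower from means of 4.7 and 2.67 CPM in quiescent cells, with log2 fold changes of -2.87 and -4.38. Its activated libraries held only 6 and 0 counts in WT and 0 and 1 counts in KO. Kcnmb1, the beta subunit of the smooth muscle BK channel, had 0 counts in all 4 activated libraries, which allows up to 0.49 to 1.31 CPM, against means of 2.21 and 2.44 CPM in quiescent cells. Of the 6 called higher in WT, 5 do not belong to smooth muscle alone. Hspb6, Synm, Tpm1, Tpm2 and Synpo2, named after their values were seen, are also known from striated muscle. Hspb6 rose by 2.55 on the log2 scale in WT. The other gene called higher in WT, Npnt, is not counted among these striated muscle genes. It was at 33.5 and 49.9 CPM in activated WT libraries, against 4.19 to 14.97 CPM in quiescent WT ones.

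Of 22 further pericyte genes, 12 were called lower in WT and 15 in KO, where 15.7% and 17.4% of all genes were. None was called higher. Medians were -1.78 and -2.36. The list is not specific to pericytes in these cells: Notch3, a receptor that satellite cells also use, was at 367 to 997 CPM in quiescent libraries, lowest in KO library 1 where Rgs5 was high, and had log2 fold changes of -5.57 in WT and -6.12 in KO. Vtn (vitronectin) stood at -4.79 and -4.06, and Heyl, a Notch target, at -3.80 and -4.10. Higd1b, a narrower pericyte marker, was at 0.614 to 4.75 CPM in quiescent libraries and at 0 in both activated KO libraries.

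The kinase and phosphatase genes around Mylk were called in both directions. Of 12, 2 were called higher and 3 lower in WT, and 1 higher and 2 lower in KO, with log2 fold changes in WT of 1.3 for Calm3 and -1.52 for Calm2, which both encode calmodulin. Over all genes, 9.59% were called higher and 15.7% lower in WT, and 11% and 17.4% in KO. Of 9 genes for Srf and its partners, 6 were called lower in WT and 5 in KO, none higher. Srf itself was at -1.36 and -1.38 on the log2 scale, and Klf4, which opposes the contractile program in smooth muscle and was at 879 to 1445 CPM in quiescent libraries, at -4.01 and -3.71. Around Pdgfrb, 1 of 6 genes was called higher in WT (Pdgfa, 2.81) and 2 in KO (Pdgfa, 2.9, and Pdgfra, 2.04), and Pdgfrl was called lower in both. Pdgfb, the ligand of Pdgfrb on pericytes, was at 8.47 to 36.2 CPM in quiescent and 13.6 to 71.7 CPM in activated libraries and was not called.

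The relatives of the channel subunits diverged from Kcnj8. Kcnj11, the pore that joins Abcc9 in striated muscle, was at 0.915 to 6.31 CPM in quiescent and 23.2 to 45.9 CPM in activated libraries, and rose by 3.43 on the log2 scale in WT (adjusted p = 3.35e-05) and by 3.48 in KO (adjusted p = 2.15e-05). Abcc8 stayed between 0.661 and 3.03 CPM in all libraries and was not called. Of 9 further R4 regulators of G protein signaling, the family of Rgs5, 6 were tested. Rgs4 had log2 fold changes of -4.28 in WT and -3.88 in KO, Rgs2 was called lower in both (-3.25 in WT), and Rgs1 and Rgs16 were called lower in KO. By edgeR, no gene of these lists was called between KO and WT, quiescent or activated. DESeq2 called 2 of them lower in activated KO than in activated WT cells, Cspg4 (log2 fold change -2.33, SE 0.599, adjusted p = 0.0205) and Rgs16 (-1.79, SE 0.472, adjusted p = 0.0268), and edgeR without the filter on low counts called Npnt and Anpep as well. Cspg4 was highest in activated WT library 1, as given above, and Rgs16 had a mean of 140 ± 47.6 CPM (SD, n = 2) in activated WT and 41.8 ± 10.7 CPM (SD, n = 2) in activated KO libraries. The study's own list of genes differing in activated cells also holds Rgs16 and Npnt, both lower in KO.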

How the data were processed

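Libraries came from polyA RNA of sorted cells, prepared with the NEBNext Ultra kit. According to the submitters' processing notes the authors used Trim Galore 0.6.0, STAR 2.7.2a and DESeq2 1.34.0 on GRCm38.p6. The authors deposited raw counts per gene for 12 libraries and a table of FPKM with 1 value per group. Totals were 3172164 to 23717013 counts, and counting intervals at this depth are widest for activated libraries, where 3 counts correspond to 0.49 to 1.31 CPM.

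Counts were fitted with edgeR 4.0.16 (glmQLFit and glmQLFTest, TMM, filterByExpr) over all 12 libraries with a mean per group, with Benjamini-Hochberg adjustment over 25771 genes, and SE is the log2 fold change divided by the root of F. CPM was scaled by TMM library sizes, with a prior count of 2 on the log2 scale, and divided by merged exon length from GENCODE on GRCm38 for comparison of genes with one another. DESeq2 1.42.0 served as an alternative, and its calls among the listed genes were read after seeing the data. The pipeline was tested on simulated data. The members and all gene lists were chosen with earlier results of these data known. Named list genes were those with the largest called fold change, otherwise the most abundant; genes alike to Rgs5 and Myh11 were the 5 with the highest Pearson r among genes of at least 1 CPM. Cspg4, Pdgfb, Abcc8, Pecam1, Srf, Npnt, Anpep and the striated muscle genes were named after their values were seen. The longest run of bases shared with a relative was 65, between Myh11 and both Myh9 and Myh10. Planned correlations between members were computed but are not reported, because the quiescent libraries form separate sets.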

Additional observations from a re-analysis of the deposited data

How the results depend on the processing

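No member was called between quiescent KO and WT under any alternative run: DESeq2 size factors, no filter, adjusted p alone, DESeq2, the compared groups alone, a replicate block, CT010467.1 left out, or any library left out. Leaving out libraries changed the sign of these small log2 fold changes, over -0.10 to 0.45 for Acta2, -0.42 to 0.20 for Myh11, -0.64 to 0.014 for Tagln, -0.32 to 0.28 for Cnn1, -0.24 to 0.20 for Mylk, -0.77 to 0.028 for Rgs5, -0.35 to 0.24 for Pdgfrb, -0.51 to 0.19 for Kcnj8 and -0.54 to 0.20 for Abcc9. Between activated KO and WT, 1 member (Myh11) was called without the filter and 0 to 1 with a library left out, where Tagln spanned -7.43 to 5.92 (a group left with 0 counts), Mylk -1.36 to 0.38 and Pdgfrb -1.06 to 2.01. For the difference of the KO effect between states, 1 member was called without the filter. Between activated and quiescent cells, 8 members were called in each genotype without the filter, and 5 to 6 in WT and 4 to 8 in KO with a library left out, the lowest count arising without quiescent KO library 1 or 3 or activated KO library 2, and Abcc9 in KO spanned -0.48 to 0.32 and Tagln in WT -9.12 to -0.95. The cause of these changes was not tested, beyond the fewer samples.

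Same-numbered WT and KO libraries deviated together with correlations of 0.05, 0.122, -0.05 and 0.296 when quiescent and -0.0236 when activated. With 2 activated libraries per group, both numbers give the same value by construction. Same-numbered quiescent libraries were alike in total counts, as with 12775593 in WT 2 and 13075208 in KO 2. Whether the numbers pair the samples is therefore not settled. With the replicate block, Pdgfrb between activated KO and WT came to 0.026, and Pdgfrb was called lower in activated WT (-1.87) and KO (-1.63) cells. The block changed no other member's call. Over all genes, calls between activated KO and WT were 13, but 8 with DESeq2 size factors, 325 with no filter, 145 by DESeq2, 23 with the block and 3 on the compared groups alone, and 0 without activated WT library 1, 209 without WT 2, 59 without KO 1 and 2 without KO 2. Between quiescent KO and WT they were 4, but 46 with no filter, and for the difference between states 0, but 170 with no filter, 45 by DESeq2, 6 with the block, 1 without CT010467.1, 82 without activated WT library 2 and 29 without activated KO library 1. The median log2 fold change of all genes between activated and quiescent cells, -0.92 in WT and -0.96 in KO, was -0.56 and -0.62 on the compared groups alone. On the compared groups alone the activated KO and WT fit tested 7 of the 9 members. Depth limits Tagln and Cnn1, at 14 counts or fewer in each activated library.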

Other observations

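Paralogs of the contractile members, actins, myosins, calponins and transgelins mostly of other tissues, were more often called lower than higher in activated against quiescent cells. They include the smooth muscle actin Actg2, which is also on the list of further smooth muscle contractile genes. Of 12 genes, 1 was called higher and 6 lower in WT, where 15.7% of all genes were called lower, and 1 higher and 5 lower in KO, where 17.4% were. Their medians were -1.41 and -1.31. Acta1, the skeletal muscle actin, had log2 fold changes of 3.94 in WT and 4.0 in KO. Tagln2, a transgelin of many cell types, stood at -2.85 and -3.76, and Myh14, a nonmuscle myosin heavy chain, at -3.29 and -2.19. Of the 6 Schwann cell markers, 4 were called lower in activated WT and 5 in activated KO cells, and 1 was called lower in activated KO than in activated WT cells. Fibroadipogenic progenitor markers summed to 393 CPM in quiescent KO library 1 and to 3925 CPM in quiescent KO library 3, the widest span of the lists of other cell types among quiescent libraries. No quiescent library stood apart from the other 3 of its group in any of the 18 combinations of member and group by Dixon's test. That test looks for 1 library far from the rest. It cannot show a group that splits into high and low libraries, as given above for the pericyte members.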
